A study of Mus musculus with 6 samples.

Results

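The proteasome is the barrel-shaped protease that degrades ubiquitin-tagged proteins in the cytosol and nucleus. The genes described here are the known genes of the deposited table whose symbol begins with Psm, a letter from a to g and a number. There were 50 of them among 22036 known genes and 38207 genes and loci in all. They were grouped by that letter into core alpha subunits (8 genes), core beta subunits (8), the inducible catalytic subunits Psmb8, Psmb9 and Psmb10 of the immunoproteasome (3), regulatory ATPases (6, letter c), other regulatory proteins (14, letter d), activators (5, letter e), an inhibitor (1, Psmf1) and assembly factors (4, letter g). The remaining match, Psmc3ip, encodes a cofactor of meiotic recombination and no proteasome subunit, and is given apart from the subgroups. The counts, shares and medians over all members include it.

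The libraries came from brain samples labelled as microglia of wild-type (WT) mice. There were 3 libraries from sham-operated mice and 3 from mice that underwent tMCAO, which usually stands for transient occlusion of the middle cerebral artery and serves as a stroke model. Each library pooled 30 mice and was read as cDNA on a nanopore platform. The sources used here do not give age, sex, time after surgery or how the cells were isolated, and one label speaks of RNA from tissue. Whether pools shared a day of preparation is likewise unstated, and the p-values below describe variation among pools alone. In such pools, fewer cells of a type and less RNA per cell cannot be told apart.

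In the core particle, the alpha subunits form the outer rings and the gate, and the beta subunits form the inner rings, which hold the proteolytic sites. Psmb5, Psmb6 and Psmb7 carry the constitutive sites. Interferon signals induce Psmb8, Psmb9 and Psmb10, which replace Psmb5, Psmb6 and Psmb7 respectively in newly built particles and shift the cleavage pattern toward peptides that bind MHC class I. The regulatory particle recognises, unfolds and feeds substrates into the core. PA28, made of Psme1 and Psme2, is an alternative cap that is also induced by interferon-gamma.

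Because the inducible genes are the members on which interferon is known to act, the DNA at the starts of some of them is shown before the values, with a constitutive counterpart and the member that changed. Each window runs from 250 bases before to 50 bases after the gene start in RefSeq (build GRCm38.p6) and is written 5′ to 3′ on the gene's strand. Capitals mark letter matches, on either strand, to the interferon-stimulated response element (ISRE, searched as GAAA, any 2 bases and GAAA), the gamma-activated site (GAS, TTCNNNGAA), the antioxidant response element (ARE, TGACNNNGC), the GC box (GGGCGG) and the TATA box (TATAAA). Psmb8 (chr17:34197945-34198244, + strand), the inducible replacement of Psmb5, holds GAS and TATA letters. Psmb9 (chr17:34187281-34187580, - strand) holds a GC box. Psme1 (chr14:55578244-55578543, + strand) holds a GC box and, read on the opposite strand, an ISRE. Psmb5 (chr14:54617946-54618245, - strand) holds an ARE. Psmb4 (chr3:94886909-94887208, - strand) holds TATA letters on both strands, which overlap each other.
Psmb8: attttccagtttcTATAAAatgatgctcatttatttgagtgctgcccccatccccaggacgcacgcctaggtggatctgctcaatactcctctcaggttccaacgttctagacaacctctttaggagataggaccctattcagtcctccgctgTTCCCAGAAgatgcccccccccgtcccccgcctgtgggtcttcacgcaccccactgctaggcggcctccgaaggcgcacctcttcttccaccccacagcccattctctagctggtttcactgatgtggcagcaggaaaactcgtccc
Psmb9: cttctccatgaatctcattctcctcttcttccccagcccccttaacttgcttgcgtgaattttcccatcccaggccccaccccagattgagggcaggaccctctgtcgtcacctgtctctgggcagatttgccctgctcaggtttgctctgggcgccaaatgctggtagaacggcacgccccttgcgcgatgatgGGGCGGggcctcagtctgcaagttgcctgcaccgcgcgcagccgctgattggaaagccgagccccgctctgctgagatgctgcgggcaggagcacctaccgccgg
Psme1: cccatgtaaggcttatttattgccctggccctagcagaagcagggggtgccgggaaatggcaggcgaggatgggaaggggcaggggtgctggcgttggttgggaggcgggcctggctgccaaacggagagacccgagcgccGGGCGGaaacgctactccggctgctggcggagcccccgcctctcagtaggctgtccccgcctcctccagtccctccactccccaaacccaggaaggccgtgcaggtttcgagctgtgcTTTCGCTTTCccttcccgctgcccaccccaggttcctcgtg
Psmb5: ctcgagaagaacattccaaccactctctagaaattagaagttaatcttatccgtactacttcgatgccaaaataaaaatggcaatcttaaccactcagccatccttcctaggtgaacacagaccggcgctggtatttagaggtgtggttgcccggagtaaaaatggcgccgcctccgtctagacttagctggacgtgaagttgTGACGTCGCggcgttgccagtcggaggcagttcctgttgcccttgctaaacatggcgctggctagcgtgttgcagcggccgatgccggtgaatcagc
Psmb4: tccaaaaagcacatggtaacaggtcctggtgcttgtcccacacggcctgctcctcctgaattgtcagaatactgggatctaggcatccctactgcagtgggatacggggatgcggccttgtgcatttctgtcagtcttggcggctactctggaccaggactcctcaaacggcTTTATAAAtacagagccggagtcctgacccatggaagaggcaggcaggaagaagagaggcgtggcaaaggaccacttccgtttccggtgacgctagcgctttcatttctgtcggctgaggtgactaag

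RefSeq windows were found for 42 of the 50 members, and none was used for Psma8, Psmb1, Psmb2, Psmb7, Psmc3, Psmd3, Psmd7 and Psmg2. ISRE letters stood in the windows of 5 of these 42 members (Psmb3, Psmd4, Psmd9, Psme1 and Psmg4), against 3.44% of all 32851 windows in the table. GAS letters stood in 3 (Psmb8, Psmd2 and Psmg1; 8.3% of all windows), and ARE letters in 6 (Psmb5, Psmb6, Psmc6, Psmd12, Psmd9 and Psme4; 12.4%). GC boxes stood in 23 members (35.7% of all windows) and TATA letters in 4 (13.6%). A member was counted when any of its windows matched, whereas the percentages are shares of windows (32851 windows of 27025 genes). The counts and percentages are thus not on the same base. These are matches of letters, not sites shown to be bound, and a window without a match is not shown to lack a site. The windows of Psmb9 and of Tap1, a subunit of the transporter that carries proteasome products into the endoplasmic reticulum, lie on opposite strands and share 275 of their 300 bases. The printed Psmb9 window is thus nearly all of the Tap1 window read the other way.

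Levels are given as CPM, counts scaled to a common library size by edgeR's TMM. Library totals ran from 2371235 to 2614512 counts in sham and from 1855495 to 2030550 in tMCAO, and proteasome genes took 0.477 to 0.492% of sham counts and 0.485 to 0.576% of tMCAO counts. All 8 microglia markers had counts, with sums of 32725 to 35350 CPM in sham and 31386 to 32233 in tMCAO. Sums in sham and tMCAO ranged from 174 to 212 and from 290 to 356 CPM for 6 border macrophage markers, and from 77.2 to 98.0 and from 95.3 to 270 for 7 monocyte markers. Those of 7 neutrophil markers ranged from 1875 to 2370 and from 384 to 1714, those of 5 erythroid markers from 999 to 6755 and from 207 to 397, and those of 6 astrocyte markers from 142 to 453 and from 60.4 to 85.1. Choroid plexus markers (5 genes) summed to 8998 to 49747 CPM in sham and 2171 to 10388 in tMCAO, and T and NK cell markers (6 genes) to 6.23 to 13.6 and 3.90 to 9.34. Of all these lists and a B cell list, the B cell gene Ms4a1 alone had no count in a group, tMCAO. Single markers changed within these sums: 4 of 6 tested monocyte markers rose (Fn1 by 4.28 ± 0.65, Plac8 by 2.15 ± 0.34, S100a4 by 2.04 ± 0.42 and Ccr2 by 1.88 ± 0.39 on the log2 scale), as did 3 of 6 border macrophage markers. Of the 8 microglia markers, 1 fell, P2ry12 (-0.74 ± 0.15). Slc1a2 (-4.25 ± 0.78) and Aldoc (-3.15 ± 0.58) of the astrocyte list fell, as did Mobp (-2.75 ± 0.57), 1 of 5 oligodendrocyte markers. Clic6 of the choroid plexus list (-1.84 ± 0.53) and Retnlg of the neutrophil list (-0.95 ± 0.22) fell too. Sums of the oligodendrocyte markers ranged from 102 to 843 CPM in sham and from 71.7 to 242 in tMCAO. The part of these other cells in the results below was not tested.

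Few proteasome genes changed after tMCAO. Of the 50 genes, 48 had enough counts to be tested, 0 rose and 1, Psmb4, fell, which is 2.08% of those tested. Calls were made for 18.1% of all 13127 genes and loci in the fit, 9.17% higher and 8.96% lower, and for 17.1% of known genes. The median log2 fold change of tMCAO over sham was 0.04 over the 48 members and 0.00 over all genes tested, and the median of its absolute size was 0.18 and 0.43. At an unadjusted p under 0.05, edgeR's test had 1 member higher and 3 lower, and 32.4% of all genes tested in either direction. DESeq2 and limma voom each called 0 members higher and 1 lower, Psmb4.

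The intervals show how large a change remained possible. For 42 of the 48 tested members the 95% interval of the log2 fold change lay between -1 and 1, and this held for 39.6% of all genes tested. It did not hold for Psma8, Psmd5, Psme3, Psme4, Psmg1 and Psmc3ip. Of the 48 members, 38 averaged a log2 CPM of 5 or more, and 21.6% of known genes at such levels changed. The groups did not overlap for 6 members higher in tMCAO and 5 lower, where 37.2% of all genes tested and 37.0% of known genes had groups apart in either direction. On the deposited CPM, scaled by library totals, the count was 11 higher and 4 lower, beside 23.3% and 14.6% of all genes tested. On that scale Psma2, Psmb1, Psmb9, Psmd7 and Psme1 were also apart, and Psma8 was not.

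**Figure D1:**
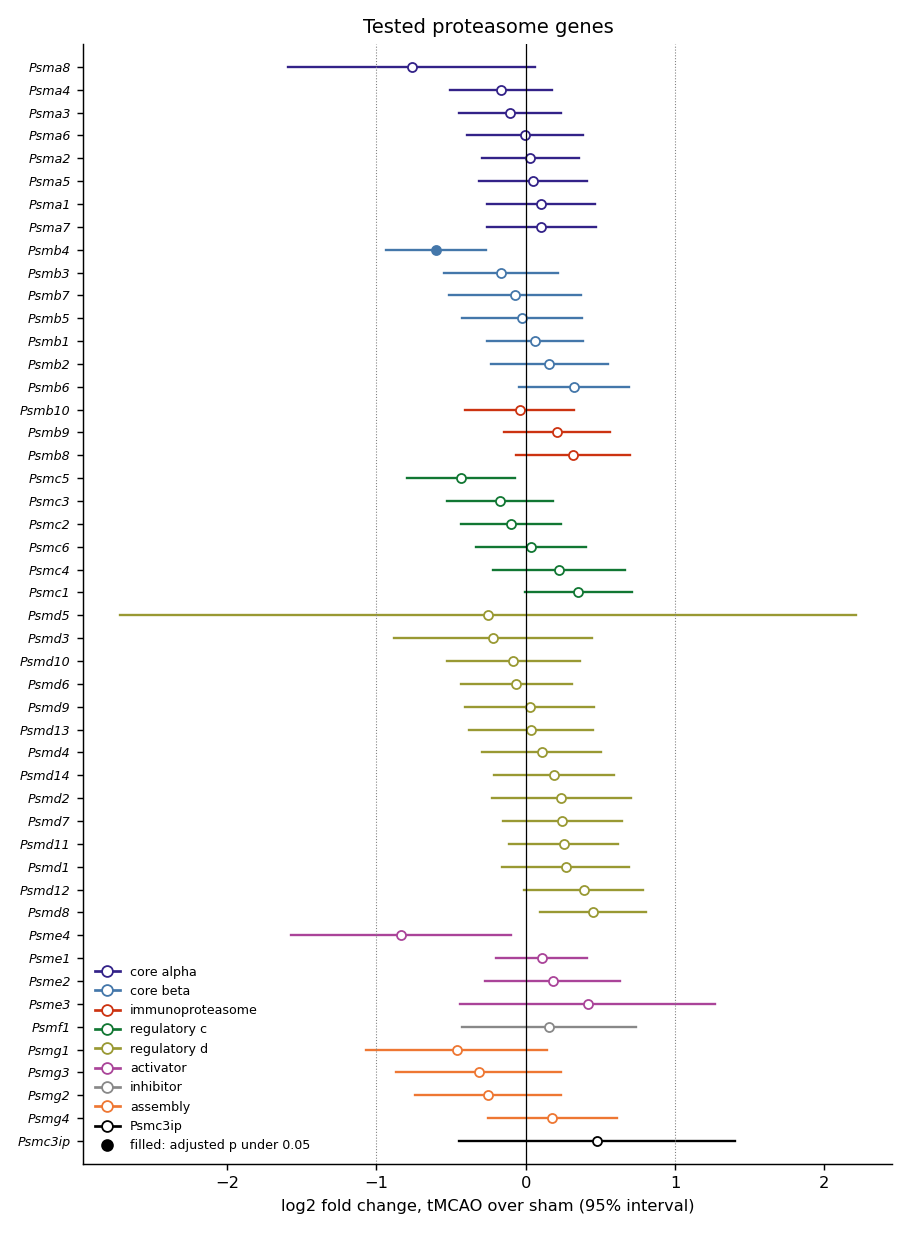
Log2 fold change (tMCAO over sham) of the 48 tested proteasome genes with 95% intervals, coloured by subgroup, where a filled point passed an adjusted p of 0.05 in edgeR's quasi-likelihood test and dotted lines mark -1 and 1. The 1 filled point is Psmb4 at -0.60, and the widest interval is that of Psmd5.

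Psmb4, a beta subunit without proteolytic activity of its own, was the member that changed. Its levels were 191, 193 and 172 CPM in sham and 135, 115 and 116 in tMCAO, from raw counts of 429, 435 and 429 in sham 1 to 3 and 287, 222 and 208 in tMCAO 1 to 3. Every tMCAO library lay below every sham library. The mean was 185 ± 11.7 CPM in sham and 122 ± 11.5 in tMCAO (SD, n = 3), a log2 fold change of -0.60 ± 0.16 (SE; interval -0.93 to -0.26, adjusted p = 0.0185 in edgeR's quasi-likelihood test with Benjamini-Hochberg adjustment). In the GENCODE M21 annotation no other gene overlaps Psmb4. The call was lost without sham 1 (adjusted p = 0.0797 in edgeR's test), sham 2 (0.0590) or tMCAO 2 (0.0673) and with sham 1 and tMCAO 3 both left out (0.0737). It was also lost with replicate number as a further term (adjusted p = 0.0532 in edgeR's test). Over the 14 alternatives the log2 fold change ranged from -0.67 to -0.48, and the adjusted p from 0.0104 to 0.0797.

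Of the 8 core beta genes, 7 were tested, 0 rose and 1, Psmb4, fell. Log2 fold changes are given below with their SE in parentheses, and means with their SD over 3 libraries. Psmb1 had 326 ± 10.7 CPM in sham and 341 ± 43.4 in tMCAO (0.06 ± 0.15). Psmb2 had 149 ± 11.1 CPM in sham and 167 ± 37.3 in tMCAO (0.16 ± 0.18), and Psmb3 had 148 ± 11.7 CPM in sham and 132 ± 26.6 in tMCAO (-0.17 ± 0.18). On this scale these 3 structural subunits overlapped between the groups, and on the deposited CPM Psmb1 did not. Psmb11, the subunit of the thymus proteasome, had 0 counts in each of the 6 libraries, which allows up to 1.15 to 1.62 CPM of the library total (3 counts per library, for counting error only).

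All 8 core alpha genes, which form the outer rings, were tested, and 0 rose and 0 fell. At an unadjusted p under 0.05 the count in edgeR's test was also 0 in both directions, and DESeq2 and limma voom called 0. Psma7 lay at 278, 267 and 229.7 CPM in sham and 269, 231 and 331 in tMCAO (0.10 ± 0.17). Psma4 had 226 ± 8.19 CPM in sham and 201 ± 27.1 in tMCAO (-0.16 ± 0.16). Psma7 was highest in tMCAO 3 and lower in tMCAO 2 than in sham 1 and 2. Psma8, known as the variant of Psma7 made in testis, had raw counts of 17, 13 and 19 in sham 1 to 3 and 11, 7 and 6 in tMCAO 1 to 3. Its levels of 7.57, 5.76 and 7.60 CPM in sham and 5.19, 3.63 and 3.34 in tMCAO did not overlap on this scale and did on the deposited CPM, and it did not pass (-0.76 ± 0.38, interval -1.59 to 0.06, adjusted p = 0.187 in edgeR's test).

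Most core genes shared an order of libraries. Of the 15 tested core alpha and beta genes, 14 were lowest in tMCAO 2 among the tMCAO libraries and 13 were highest in tMCAO 3. All 6 regulatory ATPases had that same order. Summed core alpha levels were 1495, 1483 and 1379 CPM in sham 1 to 3 and 1439.9, 1236 and 1676 in tMCAO 1 to 3. The tMCAO sums thus lay on both sides of the sham sums, and the ratio of the group means was 0.999. Core beta sums were 1224, 1242 and 1148 CPM in sham 1 to 3 and 1185, 1029 and 1407 in tMCAO 1 to 3, with the same order among tMCAO libraries and a ratio of means of 1.0. The genes of a library share its scaling factor, so this order is not independent evidence from gene to gene.

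**Figure D2:**
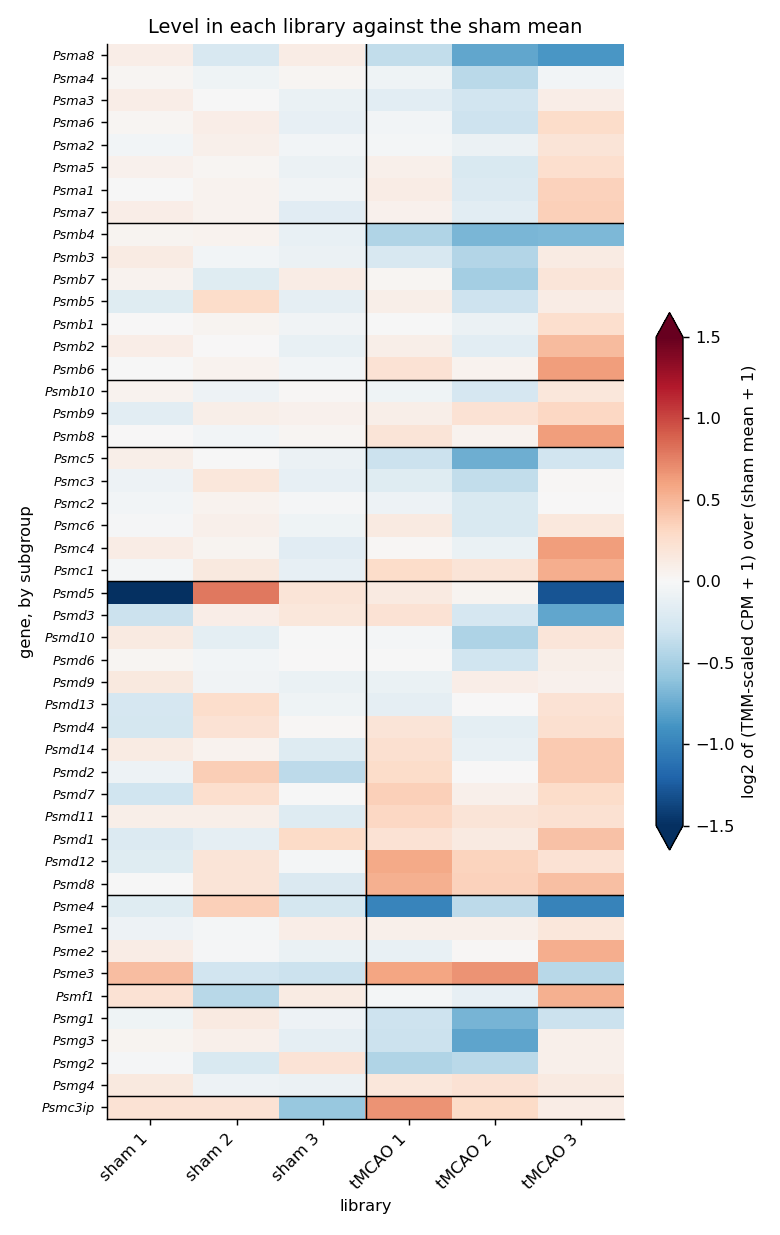
Level of each tested proteasome gene (rows, divided by subgroup) in each library (columns) as log2 of its CPM plus 1 over the sham mean plus 1, with the colour scale ending at -1.5 and 1.5. Among core genes tMCAO 2 is mostly the lowest and tMCAO 3 mostly the highest tMCAO library, and Psmd5 in sham 1 lies beyond the scale.

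Among the inducible catalytic subunits of the immunoproteasome, 0 of 3 rose and 0 fell. In edgeR's test the count at an unadjusted p under 0.05 was 0 in both directions, and DESeq2 and limma voom called 0. Psmb8 lay at 141, 137 and 143 CPM in sham and 161, 146 and 217 in tMCAO. All tMCAO libraries were above all sham libraries, and tMCAO 3 was the highest. The log2 fold change was 0.32 ± 0.18 (interval -0.06 to 0.70, adjusted p = 0.234 in edgeR's quasi-likelihood test), and it was 0.15 without tMCAO 3 and 0.12 without sham 1 and tMCAO 3.

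Psmb9 lay at 71.7, 85.1 and 83.6 CPM in sham and 84.9, 93.4 and 99.7 in tMCAO. The groups overlapped by a narrow margin, tMCAO 1 lying just under sham 2, and on the deposited CPM they did not overlap. The log2 fold change was 0.21 ± 0.17 (interval -0.15 to 0.57). Psmb10 lay at 102, 93.1 and 99.6 CPM in sham and 93.9, 82.5 and 110.3 in tMCAO, and its groups overlapped, with the lowest and the highest library both from tMCAO (-0.04 ± 0.17, interval -0.40 to 0.32).

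The constitutive catalytic subunits did not pass either. Psmb5 had 116 ± 21 CPM in sham and 114 ± 17.8 in tMCAO (-0.02 ± 0.19, interval -0.43 to 0.38), and Psmb7 had 62.4 ± 6.53 CPM in sham and 59.3 ± 14.1 in tMCAO (-0.07 ± 0.21, interval -0.52 to 0.37). Psmb6 lay at 216, 225 and 212 CPM in sham and 253, 227 and 338 in tMCAO. Its groups did not overlap, with tMCAO 2 only just above sham 2, and it did not pass (0.32 ± 0.17, interval -0.05 to 0.69, adjusted p = 0.213 in edgeR's test).

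The balance between inducible and constitutive subunits can be read within each library, where scaling cancels. Of the reads of these 6 genes, Psmb8, Psmb9 and Psmb10 together held 45.1, 42.8 and 45.9% in sham 1 to 3 and 43.6, 46.9 and 44.5 in tMCAO 1 to 3. The groups overlapped, and the means were 44.6 ± 1.59% in sham and 45 ± 1.74% in tMCAO. Read shares are not corrected for transcript length, so they serve to compare libraries and not genes. Of the reads of each pair, Psmb8 held 55 ± 4.87% in sham and 60.3 ± 3.52% in tMCAO against Psmb5. Psmb9 held 26.9 ± 1.78% in sham and 25.7 ± 3.22% in tMCAO against Psmb6, and Psmb10 held 61.2 ± 1.59% in sham and 62 ± 3.07% in tMCAO against Psmb7. The groups overlapped for each of these pairs.

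**Figure D3:**
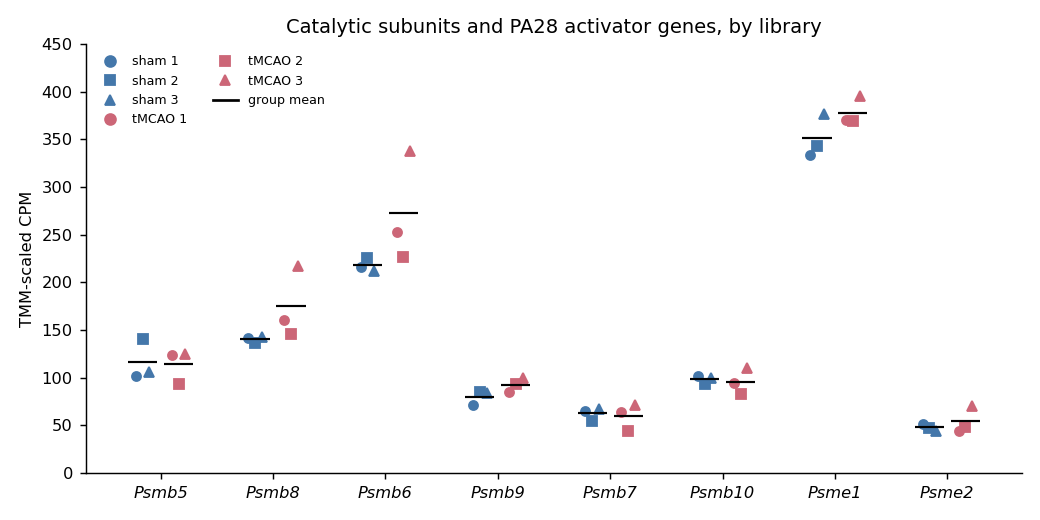
CPM of the constitutive catalytic genes Psmb5, Psmb6 and Psmb7, each beside its inducible replacement, and of the PA28 genes Psme1 and Psme2, with 1 point per library and lines at group means. Psmb8 and Psmb6 have their highest points in tMCAO 3 (217 and 338 CPM), and on this scale the groups of the other 6 genes overlap.

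The PA28 genes did not pass. Psme1 lay at 334, 343 and 377 CPM in sham and 370.0, 369 and 395 in tMCAO (0.11 ± 0.14, interval -0.20 to 0.41). Psme2 lay at 51.6, 47 and 44.4 CPM in sham and 43.9, 48.3 and 70.2 in tMCAO (0.18 ± 0.21, interval -0.27 to 0.63). Both genes overlapped between the groups and were highest in tMCAO 3. On the deposited CPM the groups of Psme1 did not overlap, and tMCAO 3 was its lowest tMCAO library. Psme2 has a near-identical copy, Psme2b, which had a single count in sham 3 and none elsewhere, so the assignment of reads between them is uncertain.

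Psme4, which encodes the nuclear cap PA200, lay at 11.6, 17.3 and 10.8 CPM in sham and 6.14, 9.86 and 6.13 in tMCAO. Its groups did not overlap, and it did not pass (-0.84 ± 0.34, interval -1.57 to -0.10, adjusted p = 0.108 in edgeR's test). Psme3, the nuclear PA28 gamma subunit, had 7.78 ± 2.90 CPM in sham and 10.3 ± 4.09 in tMCAO (0.41 ± 0.40). Its lowest library was tMCAO 3, and without sham 1 and tMCAO 3 the log2 fold change was 1.03 (adjusted p = 0.113 in edgeR's test). Psmf1, which encodes the proteasome inhibitor PI31, had 21.6 ± 5.0 CPM in sham and 24.2 ± 6.55 in tMCAO (0.16 ± 0.27). Of the 4 activators tested, 0 rose and 0 fell, with 0 higher and 1 lower (Psme4) when p under 0.05 was left unadjusted in edgeR's test, and DESeq2 and limma voom called 0.

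Of the 6 regulatory ATPases, which form the ring that unfolds substrates, 0 rose and 0 fell. In edgeR's test 1, Psmc5, was lower and 0 were higher when p under 0.05 was left unadjusted, and DESeq2 and limma voom called 0. Psmc5 lay at 219.9, 207 and 195 CPM in sham and 166, 125 and 169 in tMCAO. The groups did not overlap, and it did not pass (-0.43 ± 0.17, interval -0.79 to -0.07, adjusted p = 0.0882 in edgeR's test). Psmc1 lay the other way, at 103, 116 and 96 CPM in sham and 127, 120.4 and 154 in tMCAO, again with no overlap (0.35 ± 0.17, adjusted p = 0.163 in edgeR's test). Psmc3 had 210.4 ± 23.8 CPM in sham and 187 ± 24.7 in tMCAO (-0.17 ± 0.16).

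Among the 14 genes of the letter d, 0 rose and 0 fell. In edgeR's test 1, Psmd8, was higher and 0 were lower when p under 0.05 was left unadjusted, and DESeq2 and limma voom called 0. Log2 fold changes were above 0 in 10 and below 0 in 4, with a median of 0.15. Psmd8, a subunit of the lid, the part that removes ubiquitin chains, lay at 123, 143 and 107 CPM in sham and 181, 158 and 169.9 in tMCAO. All tMCAO libraries were above all sham libraries, and the log2 fold change was 0.45 ± 0.16 (interval 0.09 to 0.80, adjusted p = 0.0759 in edgeR's test). Psmd12, also of the lid, lay at 49.4, 64.3 and 54.8 CPM in sham and 84, 71.1 and 65.2 in tMCAO, where tMCAO 3 was just above sham 2 (0.39 ± 0.18, adjusted p = 0.163 in edgeR's test). With library totals as the scaling, Psmd8 and Psmc1 passed (adjusted p = 0.0231 and 0.0468 in edgeR's test). Under that scaling the median over all genes tested was 0.11 and that over the members 0.15 on the log2 scale.

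Psmd5, a chaperone of base assembly, was set by single libraries. It had raw counts of 1, 45 and 32 in sham 1 to 3 and 26, 22 and 7 in tMCAO 1 to 3, and levels of 0.445, 19.9 and 12.8 CPM in sham and 12.3, 11.4 and 3.90 in tMCAO. Sham 1 and tMCAO 3 were far below the rest of their own groups. The same 2 libraries were lowest in their groups for other genes, such as Pdia3 (68.1, 697 and 653 CPM in sham and 796, 544 and 55.1 in tMCAO), a chaperone of class I loading that was picked after its values were seen. The log2 fold change of -0.25 ± 0.98 had the widest interval of the tested members (-2.72 to 2.21). It was -0.83 without sham 1, 0.11 without tMCAO 3 and -0.47 without both.

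The 4 assembly factors, which chaperone the alpha ring, did not pass. The means of Psmg1 were 14.9 ± 1.32 CPM in sham and 10.8 ± 1.69 in tMCAO; its groups did not overlap (-0.46 ± 0.28, adjusted p = 0.276 in edgeR's test). Psmg2 had 35.9 ± 5.52 CPM in sham and 30.3 ± 6.61 in tMCAO (-0.25 ± 0.23). Psmg3 had 26.8 ± 2.10 CPM in sham and 21.6 ± 6.69 in tMCAO (-0.32 ± 0.26). The groups of Psmg2 and Psmg3 overlapped. Psmg4 had 28.9 ± 2.71 CPM in sham and 32.7 ± 0.995 in tMCAO (0.18 ± 0.20). The count with p under 0.05 unadjusted was 0 in edgeR's test, and DESeq2 and limma voom called 0. Psmc3ip, the match that is no subunit, had 4.06 ± 1.43 CPM in sham and 5.57 ± 1.35 in tMCAO (0.48 ± 0.43).

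Genes that act on or beside the proteasome gave no call. Of 10 tested regulators of proteasome synthesis, 0 passed, with 1 higher and 1 lower when p under 0.05 was left unadjusted in edgeR's test. Nfe2l1, the transcription factor that raises proteasome genes when proteasome activity is short, lay at 22.3, 50.1 and 27.6 CPM in sham and 55.2, 60.2 and 27.3 in tMCAO, with overlapping groups (0.52 ± 0.37). Pomp, the maturation factor of the core, had 381 ± 6.42 CPM in sham and 346 ± 58.5 in tMCAO (-0.14 ± 0.16). Of 18 tested partners of the regulatory particle and of ubiquitin delivery, 0 passed, with 4 higher and 2 lower when p under 0.05 was left unadjusted in edgeR's test. Picked after their values were seen were the ubiquitin receptor gene Adrm1 (0.54 ± 0.19) and Uchl5, which encodes the deubiquitinase that docks on it (0.55 ± 0.19). Their adjusted p was 0.0692 and 0.0620 in edgeR's test. Named likewise, the 2 lower partners were Ecpas (-0.67 ± 0.28) and Zfand5 (-0.62 ± 0.27), with adjusted p of 0.117 and 0.125 in that test. Of 5 ubiquitin genes, 0 passed, with 1 higher and 0 lower when p under 0.05 was left unadjusted in edgeR's test.

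Of 11 tested genes of the interferon signal known to induce the immunoproteasome, 4 rose, 0 fell and 7 did not pass. Among all genes tested, 9.17% rose and 18.1% changed in either direction. The list's median log2 fold change was 0.31, beside 0.00 over all genes tested. Those that did not pass include both genes of the interferon-gamma receptor, Ifngr1 (0.07 ± 0.14) and Ifngr2 (0.32 ± 0.41). They also include Ifnar2 of the type I interferon receptor (0.21 ± 0.80). Ifngr2 lay at 105, 108 and 91.6 CPM in sham and 173, 155 and 52.9 in tMCAO. Ifnar2 lay at 63.2, 148 and 158 CPM in sham and 191, 204 and 31.2 in tMCAO. These receptor genes were named after their values were seen. Stat2, which carries the type I interferon signal to the nucleus, lay at 4.01, 4.43 and 0.800 CPM in sham and 24.5, 18.2 and 14.5 in tMCAO and rose by 2.64 ± 0.45 on the log2 scale, with 2.15 to 3.03 over the 14 alternatives (lowest without sham 3; adjusted p = 0.00182 in edgeR's quasi-likelihood test). Irf9, its DNA-binding partner, rose by 0.83 ± 0.19, and the interferon receptor gene Ifnar1 by 1.04 ± 0.24. Irf1, a transcription factor that acts on Psmb9, rose by 0.78 ± 0.19 (adjusted p = 0.0126; means of 36.8 ± 1.66 CPM in sham and 63.4 ± 10.1 in tMCAO) in edgeR's test. That call was lost without sham 1 or tMCAO 2 (adjusted p = 0.0538 and 0.0539), and the calls of Irf9 (0.0560) and Ifnar1 (0.0528) were lost without sham 3. Some monocyte and border macrophage markers rose in the same libraries (4 and 3 of 6 tested each). The others did not pass, with Chil3 (-0.19 ± 0.57) and Cbr2 (-0.68 ± 0.26) below 0. The monocyte sums overlapped between the groups, and the border macrophage sums did not (174 to 212 CPM in sham, 290 to 356 in tMCAO). The part of these cells in the changes of interferon-signal and class I genes was not tested. Nlrc5, the activator of MHC class I genes, was too low to be tested, with raw counts of 2, 0 and 1 in sham 1 to 3 and 7, 8 and 4 in tMCAO 1 to 3.

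Of 12 tested genes of MHC class I presentation, 3 rose and 0 fell, or 25.0% called beside 18.1% of all genes tested and 21.6% of known genes with a log2 CPM of 5 or more. The median log2 fold change was 0.41. H2-K1, a class I heavy chain whose reads can be shared with its paralogs, rose by 1.60 ± 0.21, and H2-T23, likewise of that family, by 0.65 ± 0.16. The call of H2-T23 was lost without sham 1 (adjusted p = 0.0802 in edgeR's test), without sham 3 (0.0571) and without sham 1 and tMCAO 3 (0.0715). The class I heavy chain gene H2-D1, named after its values were seen, lay at 74.3, 294 and 287 CPM in sham and 879.7, 1250.1 and 289 in tMCAO, with sham 1 and tMCAO 3 the lowest of their groups. Its log2 fold change of 1.88 ± 0.82 missed the threshold (adjusted p = 0.208 in edgeR's test). Tap1 lay at 6.68, 3.55 and 3.60 CPM in sham and 26.4, 30.1 and 12.3 in tMCAO. Its groups did not overlap, with tMCAO 3 the lowest tMCAO library, and it rose by 2.31 ± 0.40 (interval 1.45 to 3.17, adjusted p = 0.00187 in edgeR's test). Over the 14 alternatives the log2 fold change of Tap1 ranged from 2.10 to 2.95, with 2.65 without sham 1 and 2.63 without tMCAO 3.

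Tap1 and Psmb9 start within the DNA printed above and are read away from it in opposite directions. There were 10.7, 24 and 23.2 Psmb9 counts per Tap1 count in sham 1 to 3 and 3.21, 3.10 and 8.14 in tMCAO 1 to 3. The groups did not overlap, and the log2 ratio of Tap1 to Psmb9 was higher in tMCAO by 2.07. This ratio was chosen after its values were seen, so it is a description with no test. In GENCODE M21 the genes overlap on opposite strands, whereas the RefSeq starts used for the windows lie apart and point away from each other. The sources used here do not say whether counting used strand, so reads from an overlapping stretch could not be told apart. Of the members, 12 overlap a protein-coding gene with counts in the table, among them Psmb7, Psmb9, Psmc3, Psmd5 and Psme1.

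**Figure D4:**
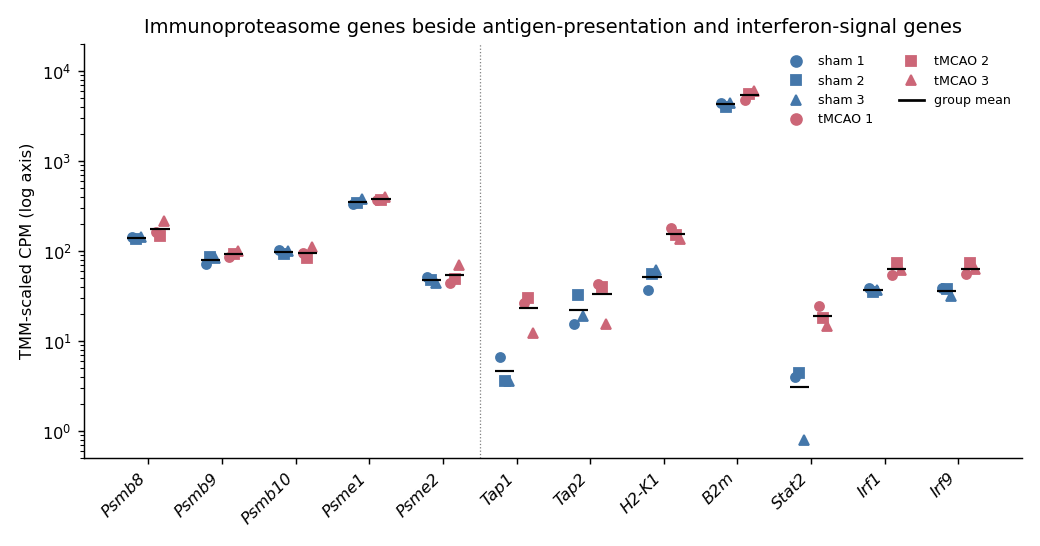
CPM on a log axis of the immunoproteasome and PA28 genes (left of the dotted line) and of genes of MHC class I presentation and the interferon signal (right), with 1 point per library and lines at group means. Tap1, H2-K1, Stat2, Irf1 and Irf9 passed edgeR's test, and of the 5 genes on the left 0 passed.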

How the data were processed

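Nanopore cDNA of 6 libraries of pooled microglia (3 sham, 3 tMCAO) was counted per gene by the authors. Per the submitters' processing notes, minimap2 was used (no version). The sources used here do not name the genome build, annotation, counting rule or use of strand. Per the file headers, the deposited table holds raw counts and CPM. The deposited CPM differed from counts over library totals by at most 4.87e-06. Of 38219 lines, 12 held no values and were left out.

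edgeR 4.0.16 (R 4.3.3) was run on the deposited counts of all genes: filterByExpr (minimum count 10, minimum total 15), TMM, robust dispersions and quasi-likelihood F tests with the group as the only term. Adjusted p-values (Benjamini-Hochberg) cover the 13127 genes tested, with a threshold of 0.05. The SE is the absolute log2 fold change over the square root of F, and the 95% interval uses the fit's total degrees of freedom. CPM in the text was recomputed from the counts of tested genes with TMM. 1 count is 0.382 to 0.539 CPM of the library total, and PCR reads without molecular identifiers are not independent molecules, so limits from 0 counts cover counting error only (floor of 3 counts per library). Replicates differed beyond sampling noise (chi-square of 5.91 to 12.7 per degree of freedom). Alternatives were other scalings, no filter, DESeq2 1.42.0, limma 3.58.1 voom, libraries left out and a replicate block. The code was tested on simulated counts.

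The members and the gene lists were chosen with earlier results of these data known. Genes named are the members that pass, the catalytic subunits and their replacements, activators, inhibitor and assembly factors, and from each remaining subgroup those with the highest level, the smallest 2 p-values and the lowest and highest fold change. From the other lists they are up to 4 passing genes with the smallest p, and Nfe2l1, Pomp, Irf1 and Nlrc5. One item of the interferon-signal list is not reported here, and the list's counts and median leave it out. Any other gene was named after its values were seen. All 50 members had the same symbol in GENCODE M21 by Ensembl ID.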

Additional observations from a re-analysis of the deposited data

How the results depend on the processing

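Of 672 log2 fold changes of tested members under 14 alternatives, 3 changed sign and moved by more than the SE of the value in the report, though none of these had passed: Psmd4 (-0.091) and Psmd13 (-0.19) without sham 1 and tMCAO 3, and Psmc4 without tMCAO 3 (-0.016 to 0.38 with 1 library left out). The cause was not tested. A further 59 values that had not passed changed sign and moved by less than that SE. Of the 48 tested members, 45 passed in no alternative. The count of members higher was 2 with library totals (Psmd8 and Psmc1, 1 each among letters d and c) and 1 with no filter on low counts (Psmd8, letter d). The count lower, and that of core beta genes called, was 0 to 1 with 1 library left out and 0 without sham 1 and tMCAO 3. Nothing in the labels says that replicate numbers pair the libraries. Deviations of same-numbered libraries correlated at -0.21, 0.02 and -0.17, and those of other pairs at -0.11 to 0.25. These values cannot show whether pools were prepared in pairs. With the replicate block, Psmb4 had an adjusted p of 0.0532 in edgeR's test, so 0 members and 0 core beta genes were called, beside 1662 genes in all. Over all genes, 1204 higher and 1176 lower calls became 2053 and 1986 with no filter, 700 to 1423 and 554 to 1167 with 1 library left out, and 921 and 652 without sham 1 and tMCAO 3. The share of higher calls was 50.6%, and 63.2% with library totals and 42.2% with upper-quartile scaling. The difference in the immunoproteasome read share (0.393 percentage points) ranged from -0.577 to 1.11 with 1 library left out. Taken as the mean of the 3 pairwise percentages, the difference was 1.65 points, with overlapping groups. Depth limits the members with few counts, such as Psma8, Psme3 and Psme4.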
